A study of Mus musculus with 2 samples.

Results

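The EGR and NR4A early genes were followed across the cells of regenerating mouse muscle: Egr1, Egr2 and Egr3, Nr4a1, Nr4a2 and Nr4a3, and the companion early response genes Ier2 and Ier3. The members were chosen by name, and all 8 were found among the 19169 genes of the deposited table. The cells came from the gastrocnemius muscle of male mice on day 14 after cardiotoxin (CTX), a venom toxin that kills muscle fibers and so starts their regrowth. They were caught in droplets, and RNA molecules were counted by unique molecular identifiers (UMIs) read at the 5′ end. The WT mice were C57BL/6J, and the KO mice lacked Gsdme, a pore-forming gasdermin, in all tissues. Both groups received CTX, and no age is given in the sources used here. Each genotype had 5 mice, whether they were pooled is not stated, and 1 library per genotype was deposited. Differences between genotypes therefore carry no test and no p. Levels are UMIs of a gene per 1000000 UMIs of a group of cells (CPM), and ratios are log2 of the KO level over the WT level. Where values come as a pair, the first is from the library labelled WT and the second from the library labelled KO. Exact 95% intervals (Poisson for levels, binomial for ratios and shares) follow in parentheses and cover counting error only, not the spread between mice or libraries.

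Early genes are switched on within minutes of a stimulus, before any new protein is made, and their RNA is short-lived. Growth factor, stretch and calcium signals reach them through the MAPK cascade and the factors SRF, ELK and CREB, and the proteins they encode then set a later wave of genes. EGR proteins are zinc finger factors that bind GC-rich DNA and are held in check by NAB1 and NAB2, and NR4A proteins are orphan nuclear receptors whose activity is set mainly by how much of them is made. In muscle and its nerves EGR2 is known for driving myelination in Schwann cells and EGR3 for the muscle spindle. Enzymatic digestion of tissue is itself known to raise early genes, so the levels below describe cells as they were captured, and how much of each level arose during preparation was not tested.

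Of the members, 5 were read in the RefSeq promoter sequences at hand (GRCm38.p6, the assembly that mm10 names). Egr3 and Ier2 had no sequence among them, and Egr1 was not looked up. The windows of the Nr4a genes are shown because these 3 paralogs share many matches to 1 motif while their levels differ by cell type, and that of Egr2 for comparison. For Egr2 the source lists 5 start sites and the window of 1 of them is shown. Each runs 5′ to 3′ on the gene's strand and ends at the start site, except that of Nr4a3, which ends where the annotated first exon begins. Capitals mark the motifs searched on both strands: TGACG, which is the first part of the CREB site TGACGTCA and so lies within any match to it, the EGR site GCGNGGGCG, and the CArG box, bound by SRF. Searches for the whole CREB site, the AP-1 site TGANTCA, the ETS site CCGGAAG and the NR4A site AAAGGTCA found no match in any of these windows. The windows lie at chr15:101266596-101266845 on the plus strand (Nr4a1), chr2:57124004-57124253 on the minus strand (Nr4a2), chr4:48045055-48045152 on the plus strand (Nr4a3) and chr10:67537619-67537868 on the plus strand (Egr2).
Nr4a1: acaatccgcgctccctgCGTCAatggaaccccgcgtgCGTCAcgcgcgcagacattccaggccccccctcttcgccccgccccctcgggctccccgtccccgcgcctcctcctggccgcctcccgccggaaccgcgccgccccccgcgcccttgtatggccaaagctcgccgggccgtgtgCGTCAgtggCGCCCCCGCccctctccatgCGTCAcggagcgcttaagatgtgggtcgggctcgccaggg
Nr4a2: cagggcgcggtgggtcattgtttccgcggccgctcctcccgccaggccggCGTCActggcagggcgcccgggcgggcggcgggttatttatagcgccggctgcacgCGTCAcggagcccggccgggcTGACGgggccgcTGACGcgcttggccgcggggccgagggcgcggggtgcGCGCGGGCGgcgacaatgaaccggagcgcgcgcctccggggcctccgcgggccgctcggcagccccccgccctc
Nr4a3: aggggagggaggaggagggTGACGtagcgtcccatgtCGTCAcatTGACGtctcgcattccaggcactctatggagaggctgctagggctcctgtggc
Egr2: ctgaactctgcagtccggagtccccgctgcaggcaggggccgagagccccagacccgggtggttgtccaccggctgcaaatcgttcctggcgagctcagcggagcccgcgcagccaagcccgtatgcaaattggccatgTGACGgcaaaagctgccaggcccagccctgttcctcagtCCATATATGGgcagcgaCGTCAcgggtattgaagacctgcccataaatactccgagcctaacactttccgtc

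The 250 bases before the start site held 4 matches to TGACG in each of Nr4a1, Nr4a2 and Nr4a3; for Nr4a3, 3 of them lie in the 98 bases printed and 1 in the 152 bases left out. At least 1 such match was present in 17.8% of 32851 mouse promoters and 4 or more in 0.137%. The EGR site was matched once in Nr4a1 and once in Nr4a2, against 4.70% of promoters. Egr2 held 2 matches to TGACG and 1 CArG box, against 1.47% of promoters for the latter, and Ier3 held none of the motifs. The whole CREB site was present in 1.55% of promoters, the AP-1 site in 6.75%, the ETS site in 6.91% and the NR4A site in 1.34%. These matches describe letters in a window and say nothing of which factor was bound in these cells.

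The library labelled WT held 6354 cells (median, 5740.0 UMIs) and the library labelled KO 7078 (median, 5962). Gsdme itself had 225 and 237 UMIs, a log2 ratio of -0.11 (-0.38 to 0.16), so its RNA gave no check of the labels, on which every direction below rests. The libraries shared 4 cell barcodes. Clustering, with the members and the listed genes left out of the variable genes, gave 28 clusters, of which 23 resembled a type by its markers and 5, with 10.3% and 9.99% of the cells, stayed unnamed. The 10 types that reached 50 cells per library are described, and each held its markers above the other cells, though Col1a1 in FAP-like cells only just. Pax7, for example, stood at 164 and 297 CPM in MuSC-like cells against 2.33 in all others. The dendritic cell-like cluster also had Top2a and Mki67 among its leading genes. It held markers of other types too, Myod1 at 85.2 and 61.0 CPM and Rgs5 at 423 and 157. Whether cells of other types lie in it, and how far they shape its levels and ratios, was not tested. The larger of a pair of pericyte or smooth muscle-like clusters (Rgs5 and Kcnj8, 346 and 396 cells, median, 13045 UMIs) also carried endothelial markers, at a mean log2 fold of 1.73 over other cells.

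Egr1, a transcription factor gene that most growth signals switch on, spans chr18:34859823-34864984 on the plus strand in 2 exons (mm10, GENCODE vM21, as for all positions of genes below, with exons counted in 1 annotated transcript per gene). It was highest in endothelial-like cells, with 2978 CPM (22285 UMIs) and 3711 CPM (26383 UMIs). Pericyte or smooth muscle-like cells followed at 2329 and 3636, and these types were not separated in both libraries. Of the UMIs of the latter type, 5208476 of 5666130 (WT) and 5867075 of 6452140 (KO) came from its cluster that also carried endothelial markers. How far this shaped the type's levels of Egr1 and the other members was not tested. In the smaller cluster taken alone, Egr1 was lower than in the whole type in both libraries. Nr4a2 and Nr4a3 were higher in it than in the whole type, with its values given below. MuSC-like cells (muscle stem cells) stood at 1401 and 3129, lymphatic endothelial-like cells at 1847 and 2316, tenocyte-like cells at 1796 and 2253, fibro-adipogenic progenitor (FAP)-like cells at 1685 and 1902, Schwann-like cells at 1166 and 1947, and macrophage-like cells at 1569 and 1401. Dendritic cell-like cells (645 and 883) and T cell-like cells (212 and 168) stood below all of them. The mean of the libraries in the highest type was 17.6 times that in the lowest.

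Egr2 (chr10:67535475-67542188, plus strand, 2 exons) and Egr3 (chr14:70077203-70082614, plus strand, 3 exons) were both highest in Schwann-like cells. Egr2 stood there at 179.7 and 275 CPM, above MuSC-like cells (81.5 and 202) by the counting intervals of each library. Egr3 stood at 195 and 315 CPM in Schwann-like cells, above endothelial-like cells (139 and 181) in the same way. From the second type to the seventh, whose levels of Egr2 ran from 142 to 68.5 CPM as means of the libraries, no neighbors in the order were separated in both libraries. T cell-like cells had 1 and 4 UMIs of Egr2 and 8 and 0 of Egr3, and a count of 0 there allows up to 7.52 CPM, taken as 3 UMIs of the total, while the exact interval around 0 ends at 9.25.

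Of the NR4A paralogs, over the 10 types taken whole, Nr4a1 and Nr4a2 were highest in Schwann-like cells and Nr4a3 in dendritic cell-like and T cell-like cells. These genes lie at chr15:101254269-101274795 on the plus strand (Nr4a1, 7 exons), chr2:57106830-57124003 on the minus strand (Nr4a2, 8 exons) and chr4:48045153-48086447 on the plus strand (Nr4a3, 8 exons). Nr4a1, a regulator of metabolism and inflammation, was highest in Schwann-like cells at 739 and 1123 CPM, and next in pericyte or smooth muscle-like (554 and 738), FAP-like (552 and 637) and tenocyte-like cells (537 and 575). Nr4a2, best known from dopamine neurons, was also highest in Schwann-like cells (923 and 1371), then in tenocyte-like cells (620.0 and 463), and lowest in MuSC-like cells (30.3 and 69.5). Nr4a3 was highest in dendritic cell-like (402 and 562) and T cell-like cells (408 and 534), which were not separated from each other, and lowest in lymphatic endothelial-like (62.3 and 65.5) and endothelial-like cells (63.1 and 89.5). MuSC-like cells held Nr4a3 at 194 and 477 CPM while Nr4a2 was lower in them than in any other of the 10 types. From highest to lowest type the mean of the libraries spanned 23.0-fold for Nr4a2, 7.54-fold for Nr4a3 and 3.72-fold for Nr4a1. Clusters within types departed from this order, with values given below. The smaller pericyte or smooth muscle-like cluster held more Nr4a1 than Schwann-like cells in both libraries. It also held more Nr4a3 than dendritic cell-like or T cell-like cells. The Schwann-like cluster led by Col20a1 and Chl1 held less Nr4a1 and Nr4a2 than tenocyte-like cells in both libraries.

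Ier2 (chr8:84661331-84662852, minus strand, 1 exon), a nuclear protein of the early response, was highest in endothelial-like cells (881 and 1149.6 CPM) and pericyte or smooth muscle-like cells (650.4 and 888). The other 8 types spanned only 289 to 449 CPM as means of the libraries. Ier3 (chr17:35821684-35822923, plus strand, 2 exons), which takes part in stress survival signaling, had its highest level in macrophage-like cells, at 1494 and 1013 CPM, and was then found in endothelial-like cells (970.5 and 781). It was lowest in MuSC-like (81.5 and 130.4) and T cell-like cells (49.7 and 20.1).

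**Figure D1:**
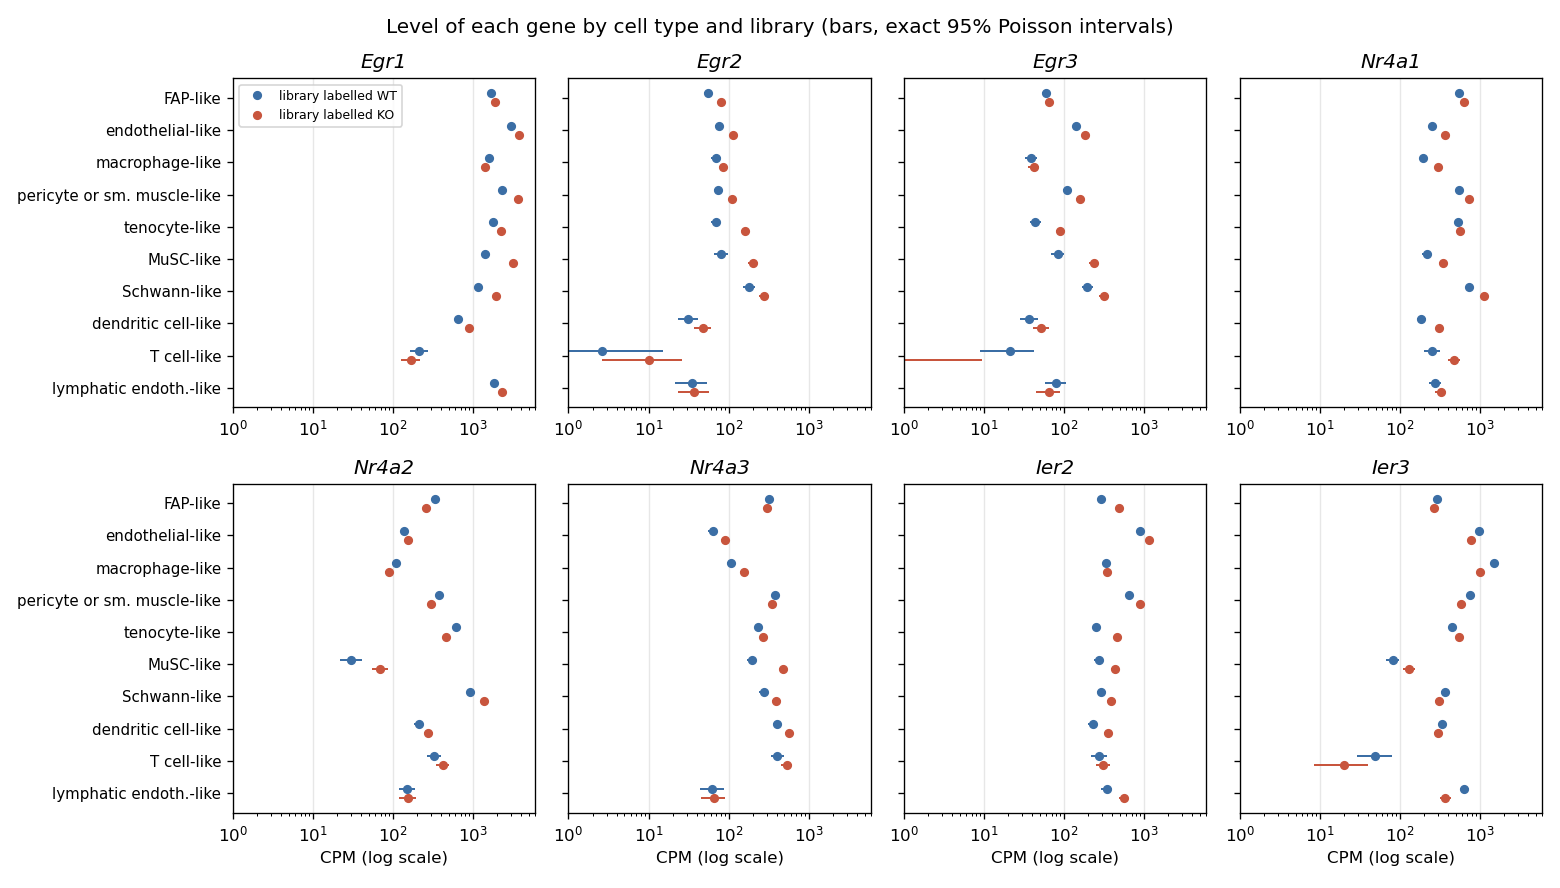
Level of each of the 8 genes (CPM, log scale) in 10 cell types; points are the libraries labelled WT (blue) and KO (red), lines their exact 95% Poisson intervals, and no point is drawn for 0 UMIs. Egr1 is lowest in T cell-like cells (212 and 168), Nr4a2 is highest in Schwann-like cells (923 and 1371) and lowest in MuSC-like cells (30.3 and 69.5), and in MuSC-like cells every red point lies to the right of the blue one.

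Across the 10 types in both libraries (20 points that share libraries, depth and naming), log2 levels of Egr2 and Egr3 went together (Pearson's r, 0.84), as did those of Egr1 and Egr3 (0.79), Egr1 and Egr2 (0.75) and Nr4a1 and Nr4a2 (0.76). Nr4a3 stood apart, with r of -0.56 to Ier3, -0.44 to Egr1 and 0.43 to Nr4a2. Of 6838 genes with at least 50 CPM in a type, those most alike in pattern were Tspan4 (r, 0.95), Ltbr (0.94) and Tcf4 (0.92) for Egr1, Kat2b (0.89), Fam168a (0.88) and Tmbim1 (0.87) for Egr2, and Fam168a (0.92), Dync1li2 (0.90) and Cltb (0.90) for Egr3. For Nr4a1 they were Cilk1 (0.87), Dtx3 (0.86) and Sema5a (0.85), for Nr4a2 Endod1 (0.85), Stk39 (0.83) and Mmgt2 (0.82), and for Nr4a3 Pole4 (0.76), Mpc1 (0.74) and Dnajb11 (0.73). For Ier2 they were Pde12 (0.93), Kctd12b (0.88) and Tmem88 (0.87), and for Ier3 Dhrs3 (0.92), Rgl1 (0.89) and Ifitm2 (0.89). These values describe the types at hand and are not tests.

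MuSC-like cells were the 1 type of the 10 in which all 8 members were at least 1.5-fold higher in the library labelled KO, and 239 and 241 cells were compared. In these cells 15.2% of 7722 genes with at least 30 UMIs were as much higher and 10.9% as much lower, and the median log2 ratio was 1.18 over the members and 0.04 over all genes. Egr3 went from 83.2 CPM (143 UMIs) to 234 (326 UMIs), a log2 ratio of 1.49 (1.2 to 1.78). Egr2 stood at 81.5 and 202 CPM (1.31, 1.01 to 1.61), and Egr1 at 1401 and 3129 (1.16, 1.09 to 1.23). All 3 EGR genes were thus more than 2-fold apart between the libraries.

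Among the nuclear receptors, Nr4a3 stood at 194 and 477 CPM in MuSC-like cells, a log2 ratio of 1.30 (1.11 to 1.49). Nr4a2 stood at 30.3 and 69.5 CPM, on only 52 and 97 UMIs (1.2, 0.70 to 1.71), and Nr4a1 at 217 and 350.5 (0.69, 0.49 to 0.89). Ier2 stood at 269 and 431 CPM (0.68, 0.50 to 0.85) and Ier3 at 81.5 and 130.4 (0.68, 0.35 to 1.01). When the libraries were clustered without integration, or at resolution 1.2, the type held 284 and 277 or 280 and 277 cells, and 5 members were past 1.5-fold in each case. Nr4a2 was then at a log2 ratio of 0.52 or 0.45, Ier2 at 0.49 or 0.47 and Ier3 at 0.35 or 0.30. By the mean over cells of UMIs per 10000, 6 members were past 1.5-fold, and Ier2 (0.42) and Ier3 (0.22) were not.

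Other signal genes of the MuSC-like cells differed from the members in part. Fos, the best known early gene, stood at 1219.9 and 1130.3 CPM (log2 ratio, -0.11, -0.21 to -0.02) and Fosb at 1817 and 1777 (-0.03, -0.11 to 0.04), while Jun stood at 841 and 1609.8 (0.94, 0.84 to 1.03). Of 9 AP-1 genes tested 5 were past 1.5-fold higher and 0 lower, of 12 MAPK feedback genes 7 and 0, and of 31 other early genes 11 and 3. Errfi1, a feedback inhibitor of EGF receptors, stood at 1324 and 2412 CPM (0.87, 0.79 to 0.94) and Dusp1, a MAPK phosphatase, at 279 and 276 (-0.02, -0.22 to 0.18). Of the corepressors that bind EGR proteins, Nab1 stood at 43.7 and 98.9 CPM (1.18, 0.76 to 1.61) and Nab2 at 23.3 and 13.6 (-0.77, -1.64 to 0.05). Rxra, a partner with which some NR4A receptors can pair, had 9.89 and 25.8 CPM, on only 17 and 36 UMIs (1.38, 0.51 to 2.31).

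The state of the MuSC-like cells also differed between the libraries. Heat-shock chaperones, a sign of stress during or before preparation, were past 1.5-fold higher for 6 of 12 genes, Hspa1a from 755 to 2328 CPM and Hspa8, the most abundant, from 4192 to 5685. Pax7 and Myod1, which mark stem and activated cells, stood at 164 and 297 and at 332 and 561 CPM, and Myog, which marks differentiating cells, at 247 and 138. The part of these in the result was not tested, but the members were compared within cells split by Pax7 or Myog. In the 121 and 174 MuSC-like cells with a Pax7 UMI the log2 ratio was 0.75 for Egr1, 1.19 for Nr4a3 and 1.7 for Nr4a2, and in the 118 and 67 cells without one it was 1.72, 1.31 and 0.63. All 8 ratios were above 0 in both sets, but in the cells with a Pax7 UMI Nr4a1 (0.42), Ier2 (0.55) and Ier3 (0.50) were under 1.5-fold, against 0.62, 0.68 and 0.79 in the others. Without the 12 and 3 cells that held a Myog UMI, the ratios of the 8 members ran from 0.54 (Ier3) to 1.39 (Egr3).

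After each cell was thinned to 1000 UMIs, MuSC-like cells held a mean of 1.30 members (WT) and 1.98 (KO). None of the 8 was seen in 28.9% (23.2 to 35.2) of 235 cells and 10.1% (6.6 to 14.7) of 237 cells. Cells with 3 or more made up 13.2% (9.14 to 18.2) and 28.7% (23.0 to 34.9), and over 20 further random draws of UMIs this difference ran from 8.27 to 22.3 percentage points. Egr1 was seen in 55.3% and 77.2% of cells and Nr4a3 in 11.5% and 30.0%. Unthinned, Egr1 was seen in 88.3% and 94.2%. No type here is known to lack Egr1 RNA, and its share was lowest in T cell-like cells (13.8% and 16.5%, median depth, 4204 and 3924 UMIs, against 6386 and 5473 in MuSC-like cells).

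**Figure D2:**
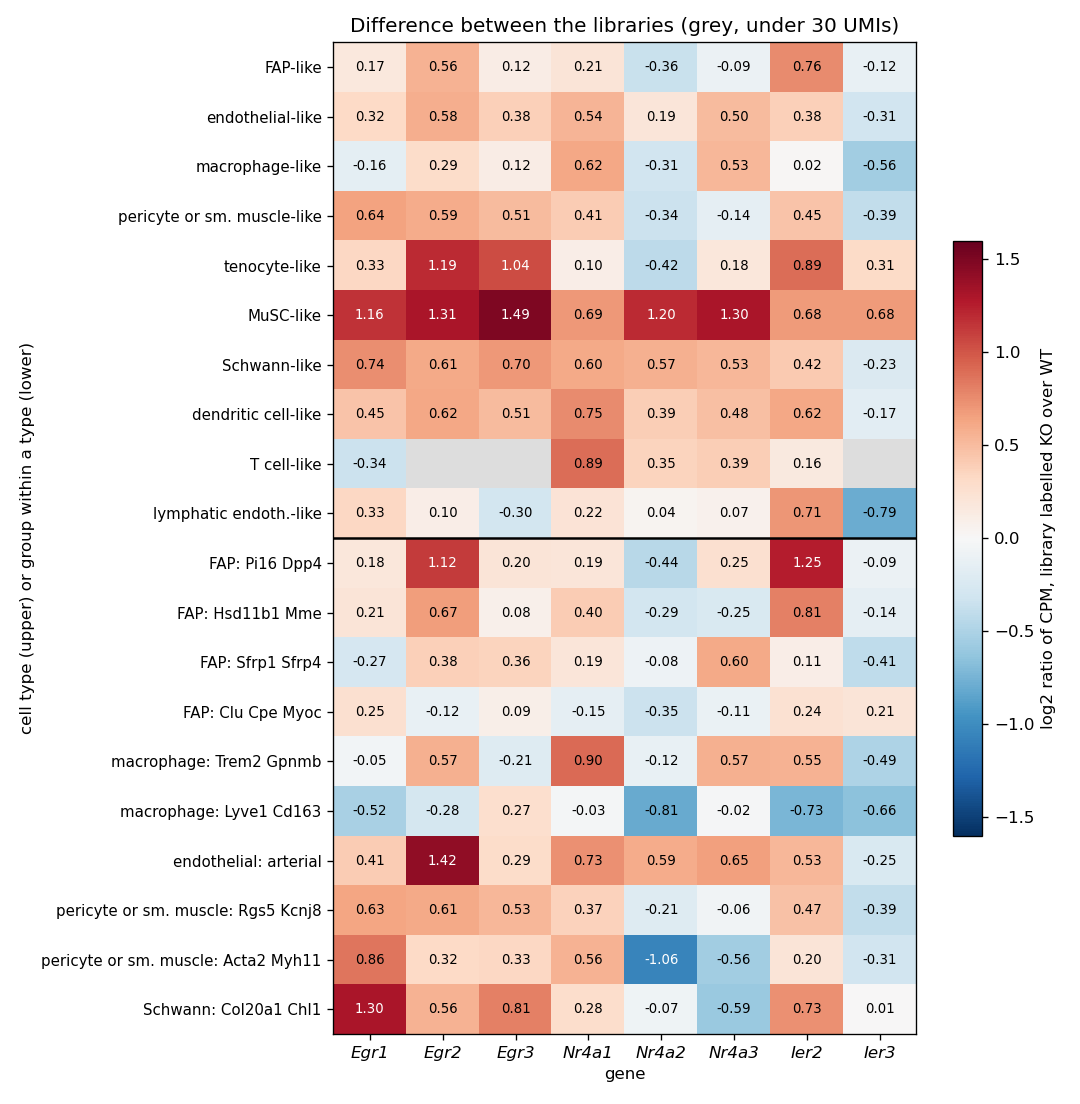
Log2 ratio of CPM, library labelled KO over WT, of the 8 genes (columns) in 10 cell types (upper rows) and in groups within types (lower rows); red is higher and blue lower in the library labelled KO, and grey cells had under 30 UMIs. The MuSC-like row is red in every column (0.68 to 1.49), while the macrophage group with Lyve1 and Cd163 holds negative values for Egr1, Nr4a2, Ier2 and Ier3 (-0.52 to -0.81).

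In macrophage-like cells the members differed by group. Over all 849 and 1029 of these cells, of which 44 and 58 formed an unnamed group led by the fibroblast genes Col3a1 and Dcn, 1 member, Nr4a1, was past 1.5-fold, with more in the library labelled KO, at 198 and 304 CPM (0.62, 0.50 to 0.73). Of all genes tested 6.27% were as much higher and 7.89% as much lower. Ier3 stood at 1494 and 1013 CPM (-0.56, -0.61 to -0.51) and Nr4a3 at 107 and 154 (0.53, 0.37 to 0.69). In the group with Lyve1 and Cd163, which mark resident macrophages (349 and 398 cells), Egr1 stood at 3227 and 2252 CPM (-0.52, -0.59 to -0.45). Ier2 stood there at 818 and 495 CPM (-0.73, -0.87 to -0.59), Ier3 at 1645 and 1041 (-0.66, -0.76 to -0.56) and Nr4a2 at 81.4 and 46.5 (-0.81, -1.28 to -0.35). Nr4a1 (284 and 279 CPM) and Nr4a3 (62.5 and 61.5) had ratios of -0.03 (-0.24 to 0.18) and -0.02 (-0.48 to 0.44) in this group. Its naming markers also differed between the libraries. Over all macrophage-like cells Lyve1 stood at 145 and 78.0 CPM (-0.89, -1.07 to -0.72) and Cd163 at 179 and 122 (-0.55, -0.69 to -0.40). The part of cell state in the ratios of the members was not tested.

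The other named group of macrophage-like cells (456 and 573 cells) was led by Il1b, Spp1 and Ccl3. It is called the group with Trem2 and Gpnmb after its marker set of Trem2, Clec4d, Gpnmb and Spp1. Of that set only Spp1 was among its leading genes. This group gave other values. Nr4a1 stood at 139 and 258 CPM (0.90, 0.73 to 1.06), Nr4a3 at 119 and 178 (0.57, 0.39 to 0.76) and Ier2 at 149 and 218 (0.55, 0.38 to 0.72). Egr1, at 873 and 841 CPM, had a ratio of -0.05 (-0.13 to 0.02). Ier3 was lower in the library labelled KO in both groups, here at 1522 and 1083 (-0.49, -0.55 to -0.43). Whether the groups differ in these ratios was not tested, since each rests on the same pair of libraries.

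At 1000 UMIs the group with Lyve1 and Cd163 held a mean of 2.46 (WT) and 1.90 (KO) members per cell. Cells with none made up 3.35% and 13.7%, and cells with 3 or more 48.7% (269 cells) and 30.3% (307 cells); over 20 draws this difference ran from -27.3 to -17.4 percentage points. Thinning left out 80 and 91 shallow cells of this group, whose median depth was 2960.0 and 2765 UMIs. The group with Trem2 and Gpnmb held 1.5 and 1.49 members per cell. Taking instead all macrophage-like cells with a UMI of Lyve1 or Cd163, a choice made after these values were seen, gave ratios of -0.56 for Ier2 and -0.55 for Ier3, while Nr4a1 and Nr4a3 stood at 0.26 and 0.24. All of these were under 1.5-fold, and Egr1 and Nr4a2 are not given for that choice. The share of all genes past 1.5-fold was counted for types only, so the group with Lyve1 and Cd163 has no such background. Heat-shock chaperones were past 1.5-fold higher for 8 of 12 genes in macrophage-like cells, and of the AP-1 genes Jun stood at 1698 and 1271 CPM (-0.42, -0.46 to -0.37) and Junb at 2755 and 2628.

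In Schwann-like cells 4 of the 8 members were past 1.5-fold higher in the library labelled KO and 0 lower, against 9.07% and 7.04% of all genes tested. These were Egr1 (1166 and 1947 CPM, log2 ratio, 0.74, 0.64 to 0.84), Egr3 (195 and 315, 0.70, 0.45 to 0.94), Egr2 (179.7 and 275, 0.61, 0.36 to 0.87) and Nr4a1 (739 and 1123, 0.60, 0.48 to 0.73). The count was 7 by the mean over cells, with Nr4a2 at 0.83, Nr4a3 at 0.72 and Ier2 at 0.67 also past it, and Ier3 went from -0.23 to 0.19; all genes then stood at 12.9% and 14.1%. At resolution 0.4 Egr3 (0.57) and Nr4a1 (0.52) were under 1.5-fold, as was Nr4a1 (0.52) with the early genes kept for clustering. In a cluster of these cells led by Col20a1 and Chl1 (84 and 62 cells), Egr1 stood at 976 and 2403 CPM (1.30, 1.16 to 1.44) and Egr3 at 169 and 296 (0.81, 0.44 to 1.19). The NR4A genes differed less there, with Nr4a2 at 374 and 356 CPM (-0.07, -0.36 to 0.22) and Nr4a1 at 387 and 469.8 (0.28, 0.01 to 0.54). Nr4a3 pointed the other way, at 118 and 78.3 CPM (-0.59, -1.18 to -0.01, on 69 and 42 UMIs). Schwann-like cells held a mean of 2.05 and 2.85 members at 1000 UMIs, and 6 of 12 heat-shock genes were past 1.5-fold higher in the library labelled KO.

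In FAP-like cells, the largest type with 1699 and 2167 cells, 1 member was past 1.5-fold higher and 0 lower, against 4.37% and 7.81% of all genes. It was Ier2, at 285 and 482 CPM (0.76, 0.70 to 0.81). By the mean over cells of UMIs per 10000 it was not past 1.5-fold (0.53). Egr2 stood at 55.4 and 81.6 CPM (0.56, 0.43 to 0.69), and Nr4a2, which pointed the other way, at 332 and 259 (-0.36, -0.42 to -0.30). Cells with an Ier2 UMI at 1000 UMIs made up 23.2% and 23.8%, so the share of cells differed little where the summed level did. The tenth of cells with most Ier2 held 58.7% (WT) and 69.0% (KO) of its thinned UMIs.

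Ier2 and Egr2 differed most between the libraries in the FAP group with Pi16 and Dpp4 (281 and 359 cells), taken as the stem-like end of this lineage. Ier2 stood there at 157 and 372 CPM (1.25, 1.08 to 1.41) and Egr2 at 11.3 and 24.4 (1.12, 0.49 to 1.79, on 28 and 86 UMIs). In the largest group, with Hsd11b1 and Mme, Ier2 stood at 315 and 553 CPM (0.81, 0.74 to 0.88). In the group with Clu, Cpe and Myoc it stood at 373 and 442 (0.24, 0.09 to 0.40). That last group had the highest Nr4a1 (1133 and 1024 CPM) and Nr4a2 (928 and 730.3) of the 4 named FAP groups in both libraries, and the group with Pi16 and Dpp4 the lowest (Nr4a1, 339 and 387, Nr4a2, 144 and 106). In FAP-like cells 11 of 12 heat-shock genes were past 1.5-fold higher in the library labelled KO, Hspa8 from 3061 to 4818 CPM, with a median log2 ratio of 1.08, while the median over the members was 0.15.

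In endothelial-like cells (1241 and 1218) 0 of the 8 members was past 1.5-fold in either direction, against 5.08% of genes higher and 4.95% lower. Their log2 ratios ran from -0.31 (Ier3, 970.5 and 781 CPM) to 0.58 (Egr2, 76.2 and 114 CPM, 0.42 to 0.73), which at 1.49-fold lay just under the fold used. Arterial-like cells (211 and 212) had Egr2 at 48.9 and 131 CPM (1.42, 1.01 to 1.85) and Nr4a1 at 343 and 569.5 (0.73, 0.56 to 0.90). Venous-like cells, only 48 and 33, had Egr3 at 105 and 269 CPM (1.36, 0.78 to 1.94). Most endothelial-like cells, 982 and 973, were in groups that stayed unnamed.

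Pericyte or smooth muscle-like cells (541 and 630) had 2 members past 1.5-fold higher and 0 lower, against 6.17% and 4.45% of all genes. These were Egr1, at 2329 and 3636 CPM (0.64, 0.61 to 0.67), and Egr2, at 73.9 and 111 (0.59, 0.41 to 0.77). The smaller cluster, led by Acta2 and Myh11, genes of the contractile apparatus (195 and 234 cells, median, 1753 UMIs), held fewer endothelial markers than other cells (mean log2 fold, -1.93). In it Egr1 stood at 1940.3 and 3529.5 CPM (0.86, 0.75 to 0.98), Nr4a2 at 964 and 463 (-1.06, -1.28 to -0.84) and Nr4a3 at 992 and 672 (-0.56, -0.76 to -0.36). Egr2 was not past 1.5-fold there, at 76.5 and 95.7 CPM (0.32, -0.31 to 0.98). The direction of Nr4a2 there was opposite to that of Nr4a1, at 1020.4 and 1502 CPM (0.56, 0.39 to 0.72).

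In tenocyte-like cells (429 and 382) 3 members were past 1.5-fold higher and 0 lower, against 9.16% and 4.90% of all genes, which stood at 7.41% and 6.10% once ratios were centered on a median of 0. They were Egr2, a gene of tendon development (69.6 and 159 CPM, 1.19, 1.01 to 1.38), Egr3 (43.6 and 90.0, 1.04, 0.81 to 1.28) and Ier2 (247 and 458, 0.89, 0.79 to 0.99). Nr4a2 stood at 620.0 and 463 CPM (-0.42, -0.50 to -0.34). In dendritic cell-like cells (174 and 163) 3 members were past 1.5-fold higher and 0 lower, against 10.4% and 10.7%: Nr4a1 (186 and 314 CPM, 0.75, 0.56 to 0.95), Ier2 (227 and 349.8, 0.62, 0.44 to 0.80) and Egr2 (31.0 and 47.5, 0.62, 0.12 to 1.12). Nr4a1 alone was past it by the mean over cells (0.90), and at resolution 0.4 the count was 6. This cluster also held markers of other types, at levels that differed between the libraries, as given above. In T cell-like cells (81 and 86) 5 members had 30 UMIs, and 1 of them, Nr4a1, which T cells raise on antigen receptor signaling, was past 1.5-fold higher (256 and 476 CPM, 0.89, 0.53 to 1.26) and 0 lower, against 11.5% and 14.9%. This level rests on few cells: 1 cell of the library labelled KO held 20 UMIs of Nr4a1 after thinning to 1000, where the most in the library labelled WT was 4, and the tenth of cells with most held 71.4% and 75.9% of its thinned UMIs. Nr4a3 (0.60) was past 1.5-fold as well by the mean over cells.

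Lymphatic endothelial-like cells (84 and 79) had 1 member past 1.5-fold higher and 1 lower, against 12.7% and 6.87% of all genes, which stood at 10.0% and 8.90% once ratios were centered on a median of 0 and at 20.5% and 17.0% by the mean over cells. Ier2 stood at 340.3 and 557 CPM (0.71, 0.47 to 0.96) and Ier3 at 644 and 373 (-0.79, -1.02 to -0.56). By the mean over cells 3 members were past it higher, Egr2 (1.23), Ier2 (1.14) and Nr4a1 (0.62), and Ier3 (-0.52) was not past it lower. In this type 0 of 12 heat-shock genes was past 1.5-fold higher and 1 was past it lower. In the 9 other types 5 to 11 of the 12 were higher. Over the 9 types in which it had 30 UMIs, Ier3 had a negative ratio in 7, the exceptions being MuSC-like (0.68) and tenocyte-like cells (0.31).

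In most types the members were found in the same cells more often than their single shares multiply to. In FAP-like cells at 1000 UMIs, 18.1% of 1675 and 21% of 2151 cells held none of the 8, where independent detection gives 10.1% and 11.6%. Cells with 5 or more made up 3.22% and 4.18%, where it gives 1.11% and 0.931%. Of the 28 pairs 25 and 27 were seen together in more cells than the product of their shares. Egr1 with Ier2 had the largest phi coefficient of these pairs, 0.19 and 0.23; 17.4% and 17.9% of cells held both against products of 13.5% and 13%. Cells of a type can differ in state, and how much of the co-detection this carries was not tested.

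**Figure D3:**
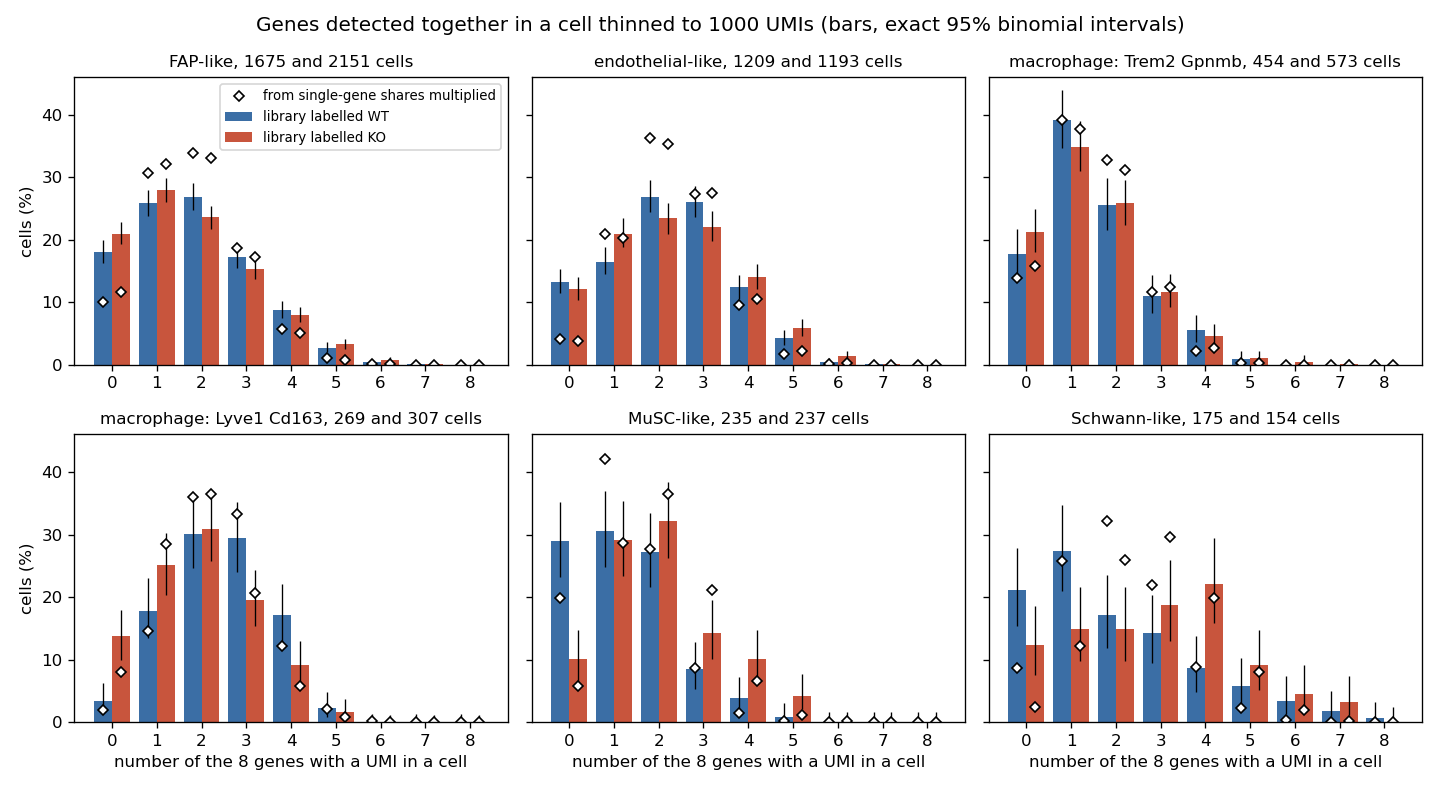
Share of cells (%) that held 0 to 8 of the genes after thinning to 1000 UMIs, in 6 groups of cells; bars are the libraries labelled WT (blue) and KO (red) with exact 95% binomial intervals, and diamonds the shares that follow if genes were detected independently. Bars at 0 stand above the diamonds in FAP-like cells (18.1% and 21% against 10.1% and 11.6%), and the red bar at 0 is the shorter in MuSC-like cells (10.1% against 28.9%) and the taller in the macrophage group with Lyve1 and Cd163 (13.7% against 3.35%).

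In endothelial-like cells 24 and 28 of 28 pairs were above their product, and 13.3% and 12.2% of cells held no member against 4.16% and 3.86% from independence. The variance of the number of members per cell was 1.63 and 1.78 times that of independent genes there. Of the 10 types taken whole it was largest in Schwann-like cells, at 2.31 and 2.02, where 11.4% of 175 and 16.9% of 154 cells held 5 or more. Pericyte or smooth muscle-like cells stood at 1.33 and 1.59 as a whole. Their smaller cluster stood at 1.99 and 2.25, above Schwann-like cells in the library labelled KO. The only cell of the library labelled WT with all 8 members at this depth was Schwann-like, and both such cells of the library labelled KO were tenocyte-like. Dendritic cell-like cells had the lowest excess, at 1.27 and 1.18, and in the library labelled KO only 11 of 28 pairs were above their product; with 157 cells most of those pairs rest on few cells. In lymphatic endothelial-like cells 14 and 13 of 28 pairs were above their product, with a median of 0.927 and 0.960 times it. With 68 and 72 cells most of these pairs rest on few cells as well. Cells with no member still made up 20.6% and 15.3% of this type, against 11.1% and 6.35% from independence. Cells with 5 or more were not seen in it, where independence gives 0.327% and 0.828%.

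**Figure D4:**
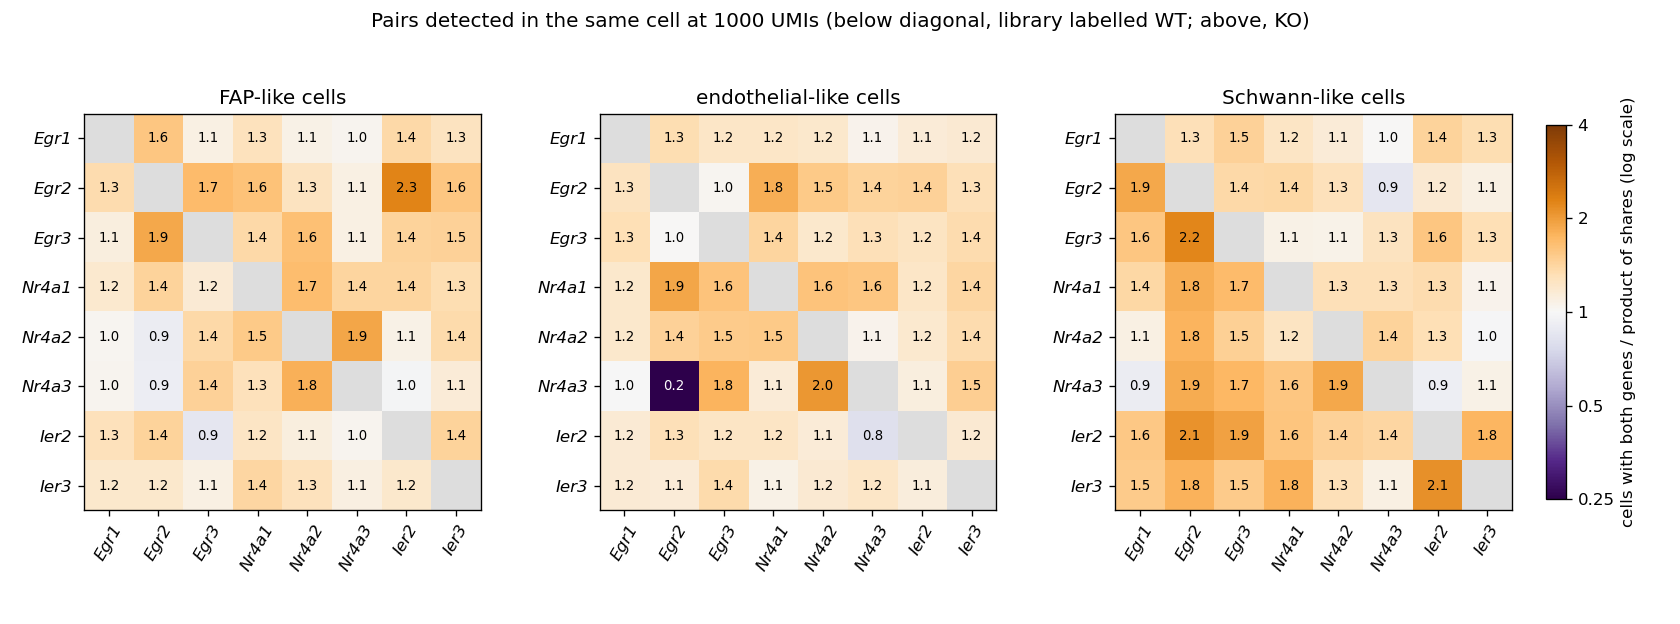
Cells that held both genes of a pair divided by the product of the single shares (log color scale, 1 is independence) in FAP-like, endothelial-like and Schwann-like cells at 1000 UMIs, with the library labelled WT below the diagonal and KO above. Most pairs lie above 1, in 25 and 27 of 28 for FAP-like cells, and the low value of Egr2 with Nr4a3 in endothelial-like cells rests on few cells, since 1 cell of the library labelled WT held both.

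The pair with the largest phi coefficient differed between the libraries in some types. In pericyte or smooth muscle-like cells it was the paralogs Nr4a2 and Nr4a3 (0.23) in the library labelled WT and Egr1 with Ier2 (0.26) in the library labelled KO. In Schwann-like cells it was Nr4a1 with Ier3 (0.32) and the paralogs Nr4a1 and Nr4a2 (0.36). The former type pools a cluster that also carried endothelial markers with a smaller cluster that held more Nr4a2 and Nr4a3. How far this pooling shaped its phi coefficients was not tested. Fos, which shares its inputs with the members, marked the cells that held more of them. FAP-like cells with a Fos UMI held a mean of 2.32 members against 1.46 without (WT), and 2.44 against 1.31 (KO). In MuSC-like cells the means were 2.14 against 0.93 and 2.58 against 1.74, so that cells without Fos held more members in the library labelled KO while Fos itself did not differ past 1.5-fold. In Schwann-like cells they were 2.87 against 1.11 and 3.69 against 1.67.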

How the data were processed

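Single cells of 1 library per genotype were analysed, grouped by the genotype in the labels; the end of a cell's barcode names its library, per the series' design text. The members and the lists were chosen with earlier results of these data known. Per the paper, Cell Ranger made the counts from reads, Seurat held the matrix, and DoubletFinder served to drop doublets. Cells over 10% mitochondrial RNA were dropped too. The submitters' processing notes name Cell Ranger 2.1.1 and mm10, while the paper gives another Cell Ranger version. The authors deposited 1 table of the natural log of 1 plus UMIs per 10000 UMIs of the cell. The table holds 0 mitochondrial genes, so that filter could not be checked.

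The log was undone and each cell was rescaled so that 1 UMI equals 1. All 29528482 values above 0 then lay within 0.286 of a whole number; tested on simulated data, the step returned the UMIs of 300 of 300 cells. The libraries held 44758518 (WT) and 50930010 (KO) UMIs. The clustering used 2000 variable genes (98 member and listed genes were barred), 30 principal components, Harmony rewritten in numpy, 20 neighbors and Louvain at resolution 0.8, and groups within types used 20 components at resolution 0.2 (0.8 for endothelial-like cells). Resolutions within types and thresholds for names were set after clusters were seen. Clusters were named by whichever marker set had the largest mean log2 fold, and stayed unnamed with a mean under 0.5, under 3 detected markers or leading genes of another lineage. Scrublet called 100 and 118 cells doublets; they were kept. CPM was summed over cells; genes with at least 30 UMIs in both libraries together were compared, and 1.5-fold was used as a fixed size with no test. The members are always named; from each list the most abundant genes of the type are named, and the 3 genes most alike to each member by Pearson's r of log2(CPM + 10). Hspa1a, Jun, Junb, Fos, Fosb, Nab1, Nab2, Rxra, Myog and the genes of the marker sets were named with their values known. A fixed draw of 1000 UMIs per cell removed depth from shares. Alternatives were another scaling, thinning, filters, resolutions and no integration. Gene models were GENCODE vM21. Versions were R 4.3.3, Python 3.11.15, scanpy 1.11.5, igraph 0.11.9, matplotlib 3.10.9, scikit-learn 1.9.0, scipy 1.17.1 and numpy 2.4.6. The other Schwann-like cluster is not reported here.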

Additional observations from a re-analysis of the deposited data

Results flagged for a closer look

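For 4 members the ratio between the libraries was past 1.5-fold in 1 direction in some cells and in the other direction elsewhere; these were flagged because the directions are opposite, and no difference between the ratios was tested, since both rest on the same pair of libraries. Nr4a2 had a log2 ratio of 1.2 in MuSC-like cells and of -1.06 in the pericyte or smooth muscle-like cluster led by Acta2 and Myh11. Nr4a3 had 1.30 in MuSC-like cells and -0.59 in the Schwann-like cluster led by Col20a1 and Chl1, the latter on 69 and 42 UMIs with an interval from -1.18 to -0.01. Ier2 had 1.25 in the FAP group with Pi16 and Dpp4 and -0.73 in the macrophage group with Lyve1 and Cd163. Ier3 had 0.68 in MuSC-like cells and -0.79 in lymphatic endothelial-like cells. Many types, groups and clusters were searched for such pairs. The share of all genes with opposite directions among them was not counted, so the 4 members are not shown to be unusual.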

How the results depend on the processing

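No paired analysis was possible because each genotype is 1 library. Of 28 ratios of members past 1.5-fold in the types and the macrophage group with Lyve1 and Cd163, all 271 values under the alternatives kept their sign and 241 stayed past 1.5-fold. Both totals include the alternatives that set the minimum at 10 or 100 UMIs. These change which genes are tested but not a ratio, so their values were bound to stay. The count of members at least 1.5-fold higher was 8 in MuSC-like cells and 5 with no integration of the libraries or at resolution 1.2; by the mean over cells it was 6. It was 1 in FAP-like cells, 0 by the mean over cells of UMIs per 10000 and 2 with CPM scaled to a median log2 ratio of 0. It was 1 in macrophage-like cells, 0 by the mean over cells and 2 at resolution 0.4, and 0 in endothelial-like cells but 1 at resolution 1.2. It was 2 in pericyte or smooth muscle-like cells and 1 by the mean over cells, with the median scaled to 0, with no integration, at resolution 1.2 and without the cluster that carries endothelial genes, where Egr2 was lost and 1 member in place of 0 was past it lower. By the mean over cells it was 7 in place of 4 in Schwann-like cells, 1 in place of 3 in dendritic cell-like cells (6 at resolution 0.4), 2 in place of 1 in T cell-like cells and 3 in place of 1 in lymphatic endothelial-like cells, where the count past it lower was 0 in place of 1. That count was 1 in place of 0 in T cell-like cells with early genes kept among the variable genes or with genes of at least 10 UMIs tested. The cause of these moves was not tested. The difference in cells with 3 or more members was 15.5 percentage points in MuSC-like cells and 24.2 after thinning to 2000 UMIs, and -5.88 in macrophage-like cells and -1.58 after thinning to 500 UMIs. Without the cluster that carries endothelial genes, 44.9% of the genes past 1.5-fold in pericyte or smooth muscle-like cells were higher, against 58.1% with it. Depth limits the rarest members: Nr4a2 rests on 52 and 97 UMIs in MuSC-like cells, and in T cell-like cells Egr2, Egr3 and Ier3 had under 30 in all. With 1 library per genotype, differences between mice, captures and genotypes cannot be told apart, and Gsdme RNA gave no check of the labels.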

Other observations

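The genes that feed signals to the members, and targets of the same signals, were also compared. In MuSC-like cells, of 13 genes of SRF, its partners, CREB and MEF2 factors 2 were past 1.5-fold higher and 0 lower, with a median log2 ratio of 0.30, where 15.2% of all genes tested were as much higher and 10.9% as much lower and the median was 0.04. Of 7 targets of cAMP and CREB 2 were higher and 0 lower; Pde4b, which breaks down cAMP, stood at 403 and 691 CPM (0.78; 0.64 to 0.92). In FAP-like cells Pde4b stood at 161 and 249 CPM (0.63; 0.55 to 0.70) while Sik1, a kinase of the same list, stood at 109 and 71.9 (-0.60; -0.71 to -0.49). In endothelial-like cells 2 of the 7 targets were past 1.5-fold higher and 1 lower, where 5.08% and 4.95% of all genes tested were. The higher ones were Pde4b, at 289 and 440.4 CPM, and Sik1, at 99.3 and 158. Only these 2 had a ratio above 0, and the median log2 ratio of the list was -0.11 against 0.03 over all genes.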
